A study of Mus musculus with 10 samples.

Results

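Elastic fibre and crosslinking genes are described here as a set of 10 genes, chosen by symbol: Eln, Fbn1, Fbn2, Fbln5, Lox, Loxl1, Loxl2, Emilin1, Mfap2 and Mfap5. All 10 were among the 18725 genes measured and among the 14862 with enough counts to be tested. RNA was sequenced from the outer sulcus of the mouse cochlea, a strip of epithelium that includes the root cells, taken with the spiral ligament under it, in 5 euthyroid and 5 hypothyroid libraries of C57BL/6J mice at postnatal day 10. The hypothyroid litters had been exposed through their mothers' drinking water, from embryonic day 17 to day 10 after birth, to methimazole (0.05%), sodium perchlorate monohydrate (1.0%) and sucrose (5.0%), while the euthyroid ones had vehicle. These drugs stop the thyroid gland from making hormone, so the mother is treated too and no gene is deleted. For the euthyroid group no sucrose content is given. An effect of sucrose, or of the drugs themselves, cannot be told apart from that of hormone loss. The question of the study was how a lack of thyroid hormone acts on the maturation of the outer sulcus. Neither the mother, the litter nor the animal of a library is given, so a litter effect and the treatment cannot be told apart, and p-values measure the spread between these libraries, which may be technical. The protocol text on extraction names joint cartilage at day 22, against every other label.

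Elastic fibres let a tissue stretch and recoil. Tropoelastin, the product of Eln, is laid down on microfibrils built of fibrillins, to which small glycoproteins such as the MAGPs are attached; fibulin-5 and EMILIN-1 help to place it there. Enzymes of the lysyl oxidase family then oxidise lysine side chains, which join into the crosslinks that make elastin and collagen insoluble. Fibrillin microfibrils also occur without elastin and hold growth factors of the TGF-beta family in store.

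In the hypothyroid libraries 7 of the 10 genes rose and 2 fell, and 1 missed the threshold, where a rise or fall means an adjusted p under 0.05 in edgeR's quasi-likelihood test over all genes. Among all genes tested 71.8% passed, 37.7% upward and 34.1% downward, so passing the test is common in this comparison. The genes of the fibre itself rose, Eln and Mfap2 the most, whereas the crosslinking genes Loxl1 and Loxl2 fell and Lox did not pass. Increases of at least 2-fold were found in 4 of the 10 genes, against 9.25% of all genes, and decreases of that size in 0 of the 10, against 7.91%. The median log2 fold change (hypothyroid minus euthyroid) was 0.71 over the 10 genes and 0.037 over all genes tested. In 8 of the 10 genes the levels of the groups did not overlap, as in 57.9% of all genes.

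**Figure D1:**
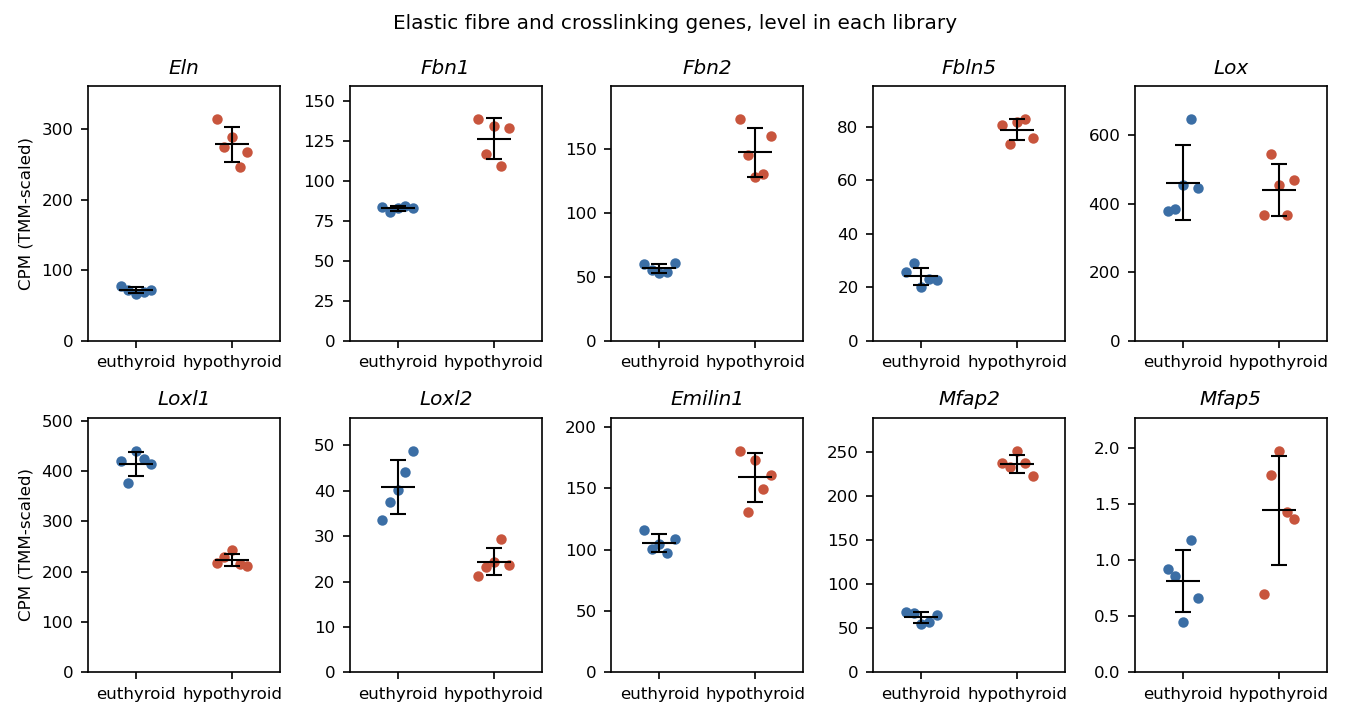
Level of each gene in every library, in CPM (counts scaled to library size times its TMM factor, linear axes from 0), with the mean and SD of 5 libraries per group as bars. The groups are apart in 8 genes and overlap in Lox and Mfap5.

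Start-of-gene windows could be matched for 4 of the 10 genes, all of which rose: Fbn1, Fbln5, Emilin1 and Mfap2. Eln, Fbn2, Lox, Loxl1, Loxl2 and Mfap5 were not matched. The 250 bases before the annotated start are shown for Mfap2 and Fbln5, which were among the genes with the larger increases and whose windows lie outside the RefSeq gene span. Sequences are from RefSeq on GRCm38.p6, written 5′ to 3′ on the gene's own strand, and capitals mark matches on either strand to AGGTCA, the half-site that thyroid hormone receptors and other nuclear receptors bind, or to GGGCGG, the GC box, so that GC boxes on the other strand read CCGCCC. The Mfap2 window is chr4:141010174-141010423 on the plus strand, and the Fbln5 window is chr12:101819120-101819369 on the minus strand.
Mfap2: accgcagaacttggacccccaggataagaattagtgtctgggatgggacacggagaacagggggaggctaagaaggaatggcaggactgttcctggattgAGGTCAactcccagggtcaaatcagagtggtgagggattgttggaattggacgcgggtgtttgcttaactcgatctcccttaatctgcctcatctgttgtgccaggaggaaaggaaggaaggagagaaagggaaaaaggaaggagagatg
Fbln5: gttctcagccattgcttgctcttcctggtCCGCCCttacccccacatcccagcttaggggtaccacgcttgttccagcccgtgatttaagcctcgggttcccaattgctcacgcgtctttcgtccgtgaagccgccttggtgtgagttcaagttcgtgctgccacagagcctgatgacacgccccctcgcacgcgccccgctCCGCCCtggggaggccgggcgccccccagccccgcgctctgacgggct

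The Mfap2 window holds 1 match to AGGTCA, which lies 145 to 150 bases before the start, and 0 GC boxes. The Fbln5 window holds 2 GC boxes and 0 half-sites. Over the 32851 mouse windows of the same length, 14.0% hold AGGTCA and 32.7% hold GGGCGG. A second Mfap2 start has a window with 1 half-site and 2 GC boxes, the Fbn1 window has 1 GC box, and the Emilin1 window and a second Fbln5 window have neither. The TATA box (TATAAA) was found in 0 of the 6 windows and in 12.4% of all. The matches describe these letters in these windows and no binding was measured.

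Eln, the gene of tropoelastin, had 78.1, 72.1, 67.1, 70.1 and 72.2 CPM in euthyroid replicates 1 to 5 and 315, 276, 289, 247 and 268 CPM in hypothyroid replicates 1 to 5. The lowest hypothyroid library thus stood well above the highest euthyroid one. The level rose from 71.9 ± 4.04 to 279 ± 25.05 CPM (SD, n = 5 each), 3.88-fold, or by 1.95 on the log2 scale with an SE of 0.063 (edgeR, adjusted p = 1.18e-12). Of all genes tested, 2.10% had a fold change as high or higher. On GRCm38.p6 Eln spans chr5:134702595-134747368 on the minus strand, and 3.30% of its exon bases are shared with an antisense gene, Gm30003. The strand of the libraries is not stated, so it is not known whether reads of Gm30003, if present, were counted to Eln.

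The fibrillins, the large glycoproteins that form the microfibril, both rose, Fbn2 more than Fbn1. Fbn1 had 83.6, 80.2, 83.2, 83.9 and 83.04 CPM in the euthyroid libraries and 138, 117, 134, 109 and 133 CPM in the hypothyroid ones. Its euthyroid values were the least variable of the set, with a coefficient of variation of 1.83% against 10.03% in the hypothyroid group. The rise was 1.52-fold (0.61 in log2 with an SE of 0.061; edgeR, adjusted p = 3.23e-07). Fbn2, the fibrillin most used in fetal and early postnatal tissue, had 60.5, 55.8, 53.4, 54.2 and 60.6 CPM against 173, 145, 128, 130.4 and 159.9 CPM. It rose 2.59-fold (1.37 in log2 with an SE of 0.081; edgeR, adjusted p = 1.93e-09), without overlap of the groups. Fbn1 lies at chr2:125300594-125506485 and shares 2442 of its 12128 exon bases with Gm9913 on the opposite strand, so reads of that gene may have been counted to Fbn1.

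In FPKM, which are per transcript length and so allow levels of different genes to be compared, Fbn2 stood below Fbn1 in every euthyroid library, at 0.604 to 0.685 of its level. In the hypothyroid libraries it was 0.897 times in replicate 3, while in the other four Fbn2 stood above Fbn1, by 0.17 to 0.23 in log2. The log2 ratio of Fbn2 to Fbn1 rose by 0.76, from -0.63 ± 0.088 to 0.13 ± 0.16 (SD, n = 5 each; exact two-sided permutation test p = 0.00794, 0.0111 after Benjamini-Hochberg adjustment over 7 ratios tested). A ratio of 2 genes within a library does not depend on how libraries are scaled. The smallest p this test can give with 5 libraries a group is 0.00794. All 7 pairs were chosen with earlier results of these data known. Each ratio difference largely restates the fold changes of its 2 genes, so the p-values of the ratios are description and no independent evidence.

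The microfibril-associated glycoproteins MAGP-1 (Mfap2) and MAGP-2 (Mfap5) were present at very different levels. Mfap2 had 68.6, 67.01, 55.5, 56.8 and 65.2 CPM in the euthyroid libraries and 238, 233, 251.7, 238 and 224 CPM in the hypothyroid ones, and the groups lay far apart. It rose 3.78-fold (1.92 in log2 with an SE of 0.062; edgeR, adjusted p = 1.19e-12), and 2.21% of genes had a fold change as high or higher. By FPKM it ranked 3 in the euthyroid set, at 58.01 ± 6.57, and 1 in the hypothyroid set, at 263 ± 10.03 (SD, n = 5 each). Mfap2 spans chr4:141010424-141015976.

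Mfap5 was near the limit of detection, with 74 counts in all 5 euthyroid libraries and 153 in the hypothyroid ones. Its CPM were 0.918, 0.862, 0.451, 1.18 and 0.665 against 0.702, 1.76, 1.98, 1.43 and 1.37. Hypothyroid replicate 1 lay within the euthyroid range, so the groups overlapped. The gene rose by 0.82 in log2 with an SE of 0.29 (edgeR, adjusted p = 0.0199), and the call was lost without euthyroid replicate 3 (adjusted p = 0.0566) or hypothyroid replicate 3 (0.0586). With a minimum count of 50 Mfap5 was not tested. The log2 FPKM ratio of Mfap5 to Mfap2 fell by 1.13 (exact permutation p = 0.00794, adjusted 0.0111), from -6.87 ± 0.50 to -8.002 ± 0.58 (SD, n = 5 each).

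Fibulin-5 and EMILIN-1 are proteins that bind elastin at the microfibril surface. Fbln5 had 25.6, 28.9, 20.2, 22.99 and 22.8 CPM in the euthyroid libraries and 80.8, 73.5, 81.6, 82.8 and 75.8 CPM in the hypothyroid ones. Its rise of 3.27-fold (1.71 in log2 with an SE of 0.079; edgeR, adjusted p = 6.12e-11) came with groups that were wide apart. Emilin1 had 116, 100.3, 105, 96.96 and 109 CPM against 181, 130.5, 173, 149.6 and 161 CPM. Its groups were separate but closer, and it rose 1.51-fold (0.59 in log2 with an SE of 0.080; edgeR, adjusted p = 1.29e-05). Fbln5 spans chr12:101746565-101819119 and Emilin1 chr5:30913387-30921279.

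Both of these genes were also set against Eln, library by library. Emilin1 had 1.41 to 1.62 times the FPKM of Eln in the euthyroid libraries and 0.482 to 0.617 times in the hypothyroid ones, a fall of 1.38 in log2 ratio (exact permutation p = 0.00794, adjusted 0.0111). The ratio of Fbln5 to Eln had a log2 difference of -0.24 (exact permutation p = 0.0397, adjusted 0.0397), its groups overlapped at 0.439 to 0.591 and 0.374 to 0.485, and the call was lost when any of 8 libraries was left out (adjusted p up to 0.0873). Eln itself rose relative to Fbn1, from 2.19 to 2.55 times to 5.48 to 6.43 times its FPKM, a log2 difference of 1.35 (exact permutation p = 0.00794, adjusted 0.0111).

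**Figure D2:**
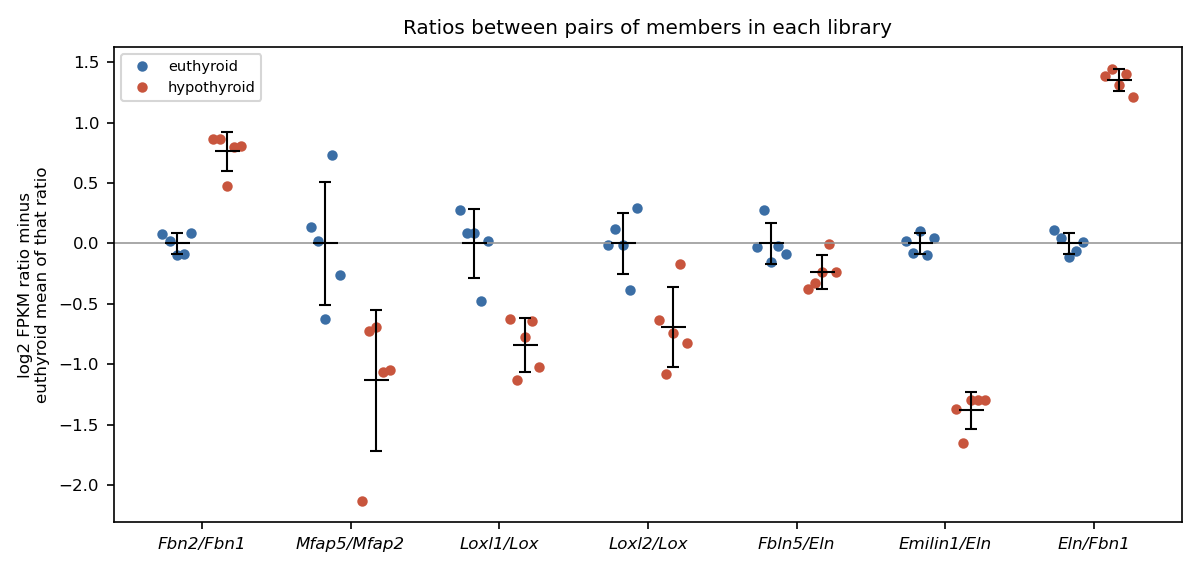
Log2 FPKM ratios of 7 pairs of genes in each library, set to the euthyroid mean of each ratio, with the mean and SD of 5 libraries as bars. Eln/Fbn1 and Fbn2/Fbn1 lie higher in all hypothyroid libraries, Emilin1/Eln, Mfap5/Mfap2 and Loxl1/Lox lower, and the groups overlap for Loxl2/Lox and Fbln5/Eln.

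The lysyl oxidase genes did not follow the fibre genes. Lox, the founding enzyme of the family, had 377, 385, 454, 646 and 445 CPM in the euthyroid libraries and 367, 545, 454, 367 and 468 CPM in the hypothyroid ones. The ranges overlapped almost fully and euthyroid replicate 4 was the highest of all. In log2 it differed by -0.068 with an SE of 0.17 (edgeR, adjusted p = 0.731). The difference was 0.075 without euthyroid replicate 4 and 0.20 with library sizes alone, so its sign was not fixed. Lox varied most among the abundant genes of the set, with coefficients of variation of 23.5% and 17.1%.

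Loxl1, the family member that crosslinks elastin in close contact with fibulin-5, had 419.9, 376, 441, 425 and 413 CPM in the euthyroid libraries and 218, 228, 244, 216 and 212 CPM in the hypothyroid ones. It fell 1.86-fold (-0.89 in log2 with an SE of 0.053; edgeR, adjusted p = 8.19e-10). Loxl2, best known for crosslinking of collagen IV, had 33.4, 37.5, 40.1, 44.2 and 48.8 CPM against 21.3, 23.2, 24.4, 29.3 and 23.6 CPM. The groups were apart for both genes, by the narrower gap for Loxl2, which fell 1.68-fold (-0.74 in log2 with an SE of 0.10; edgeR, adjusted p = 1.59e-05). With library sizes alone both stayed lower, and over all alternatives their log2 fold changes ran from -0.94 to -0.62 (Loxl1) and from -0.82 to -0.41 (Loxl2). Loxl1 spans chr9:58287723-58313212 and Loxl2 chr14:69608692-69695834, the latter with 5.70% of exon bases shared with other annotated genes.

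Loxl1 stood above Lox in 4 of 5 euthyroid libraries by FPKM, at 0.906 to 1.53 times its level, and below it in all hypothyroid ones, at 0.575 to 0.815 times. The log2 ratio fell by 0.84 (exact permutation p = 0.00794, adjusted 0.0111). The ratio of Loxl2 to Lox fell by 0.69 (exact permutation p = 0.0159, adjusted 0.0185), although hypothyroid replicate 4 lay within the euthyroid range. In the same order of FPKM, the euthyroid set ran Loxl1, Lox, Mfap2, Emilin1, Eln, Fbln5, Fbn1, Loxl2, Fbn2 and Mfap5, where Loxl1 and Lox, Fbln5 and Fbn1, and Fbn1 and Loxl2 overlapped. The hypothyroid set ran Mfap2, Lox, Eln, Loxl1, Emilin1, Fbln5, Fbn2, Fbn1, Loxl2 and Mfap5, where Lox and Eln, Eln and Loxl1, and Fbn2 and Fbn1 overlapped.

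As shares of the summed TPM of the 10 genes, Loxl1 and Lox together made up most of the euthyroid transcripts, at 33.8% ± 1.80 and 27.1% ± 4.69, with Mfap2 at 17.1% ± 2.32 and Eln at 5.36% ± 0.481 (SD, n = 5 each). In the hypothyroid libraries Mfap2 held 40.5% ± 1.49, Lox 16.5% ± 2.60, Eln 13.1% ± 0.912 and Loxl1 11.5% ± 0.327. Fbln5 went from 2.63% to 5.40%, while Emilin1 held 8.098% and 7.62% and Fbn1 2.26% and 2.17%. The sum itself was 842 ± 38.5 TPM in the euthyroid and 1561 ± 37.7 TPM in the hypothyroid group. Since shares add to a whole, a fall in one can come from a rise in another. In tissue RNA, a change in the number of cells of one type and in the RNA per cell cannot be told apart.

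**Figure D3:**
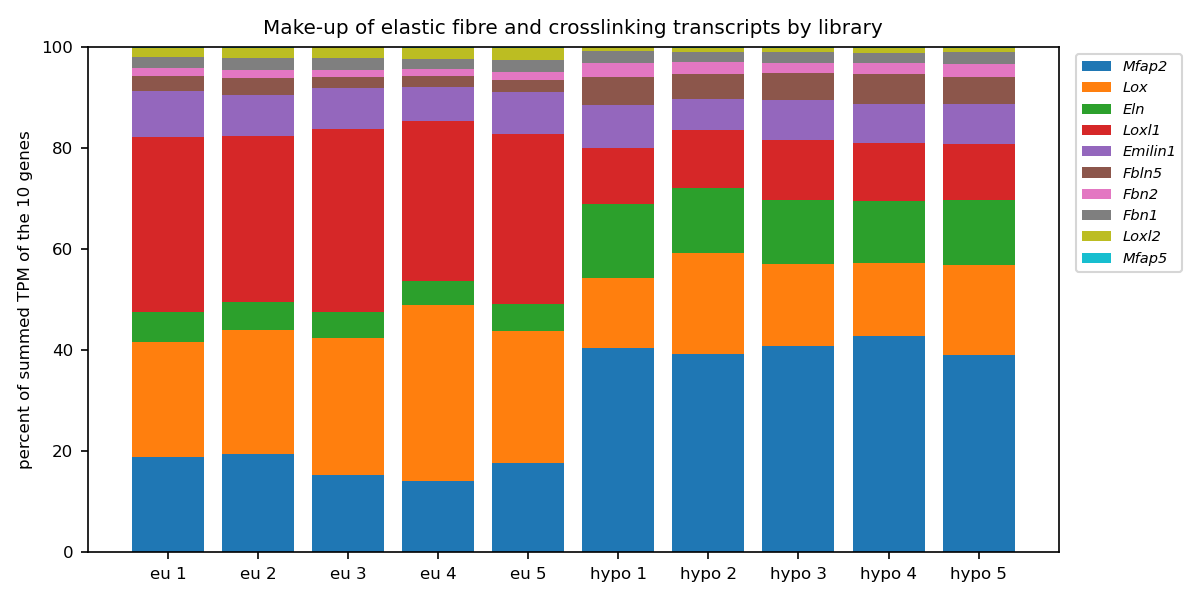
Share of each gene in the summed TPM of the 10 genes, one stacked bar per library (percent, eu for euthyroid and hypo for hypothyroid replicates). Mfap2 fills 14.1% to 19.5% of the euthyroid and 39.03% to 42.7% of the hypothyroid bars.

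**Figure D4:**
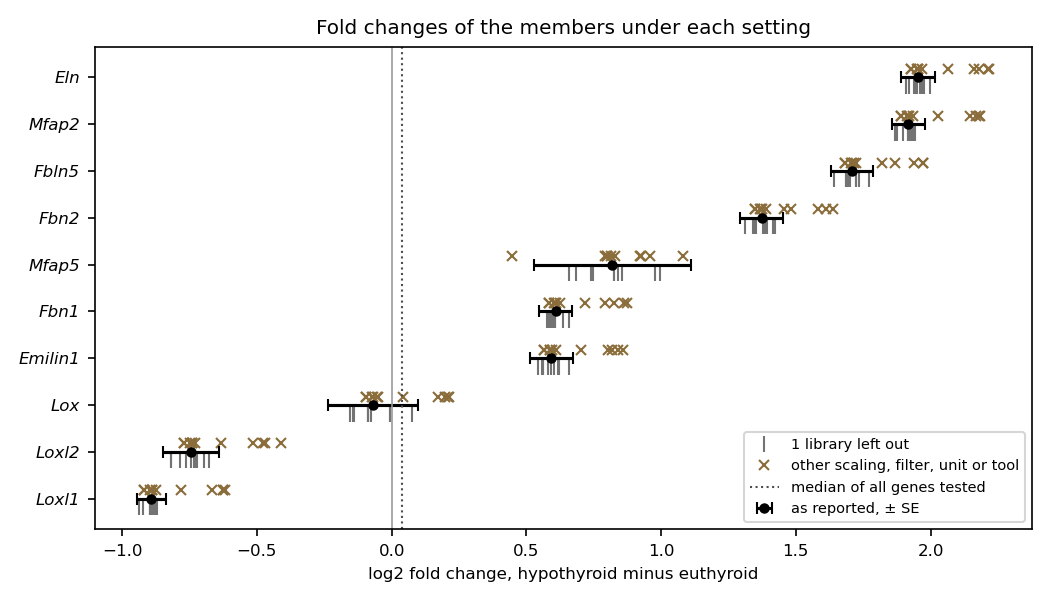
Log2 fold change of each gene with its SE (black), with 1 library left out (ticks) and with other scaling, filter, unit or tool (crosses). Only Lox has values on both sides of 0, from -0.15 to 0.21.

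The profile most like that of Eln, by the root mean square difference of centred log2 CPM over the 10 libraries, was that of Bend5 among 11984 genes with at least 5 CPM, followed by Pcsk5, Ltbp2, Mfap2 and Osbpl3. The differences were 0.066, 0.082, 0.089, 0.097 and 0.11 in that order. Because most of the spread lies between the groups, this measure mainly reflects how near a fold change is to that of Eln. In log2 the fold changes were 1.90, 2.04, 1.87, 1.92 and 1.99, against 1.95 for Eln. The likeness is therefore no separate evidence that these genes vary together. Pcsk5, a proprotein convertase gene, rose from 24.03 ± 1.27 to 98.6 ± 6.73 CPM. Ltbp2, whose protein binds fibrillin and fibulin-5, rose from 67.6 ± 5.15 to 247 ± 22.8 CPM (SD, n = 5 each). Fbln5 came at place 52 by the same measure, Fbn2 at place 210 and Fbn1 at place 1423.

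Other genes of the pathway, 53 in 5 lists chosen for what their products do, were more evenly divided. Among the 50 tested, 21 rose and 28 fell, and 1 missed the threshold, with a median log2 fold change of -0.27. Thus 98% passed and 42% rose, against 71.8% and 37.7% of all genes tested, of which 34.1% fell. These shares of all genes are the background for each list below. Fibulins and latent TGF-beta binding proteins, which bind fibrillin or elastin, were mostly higher, 7 of 10 rising and 3 falling (median 0.93). Fbln2 rose 5.48-fold, from 68.5 ± 10.4 to 375 ± 35.6 CPM, Fbln1 2.48-fold, from 40.6 ± 1.90 to 100.7 ± 6.54 CPM, and Efemp1, the gene of fibulin-3, 2.09-fold, from 167 ± 10.3 to 349 ± 27.2 CPM (SD, n = 5 each). Efemp2, the gene of fibulin-4, which brings lysyl oxidase to tropoelastin, fell by 0.23 on the log2 scale (edgeR, adjusted p = 0.00625), and with library sizes alone the difference was 0.041 (adjusted p = 0.594).

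Among 14 other fibre-associated genes 7 rose and 7 fell (median -0.22). Emilin2, whose protein is known from the basilar membrane of the cochlea, fell, with 3232 ± 469.5 CPM in the euthyroid and 68.9 ± 6.83 CPM in the hypothyroid group, 46.9-fold lower (edgeR, adjusted p = 1.32e-13). The third EMILIN gene, Emilin3, fell as well, 4.06-fold, from 43.4 ± 3.82 to 10.7 ± 1.87 CPM. Of these EMILIN genes, Emilin1 was the one that rose. Thsd4, whose product ADAMTSL6 binds fibrillin-1 microfibrils, rose 3.17-fold, from 39.7 ± 1.67 to 126 ± 7.04 CPM. Mfap4, named here after its values were seen, rose from 15.4 ± 3.07 to 49.6 ± 8.31 CPM. Adamts17, named likewise, fell 3.46-fold, from 124 ± 12.6 to 35.8 ± 4.45 CPM. Of these 14 genes 3 rose and 6 fell at least 2-fold, against 9.25% and 7.91% of all genes.

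There were 11 further crosslinking genes, of which 3 rose, 7 fell and 1 missed the threshold (median log2 fold change -0.32). The lysyl hydroxylases, which prepare collagen lysines for crosslinking, were led by Plod1, at -2.26 in log2, from 991 ± 75.9 to 207 ± 11.8 CPM, and Plod2, 3.53-fold lower from 505 ± 27.6 to 143 ± 5.29 CPM (SD, n = 5 each), whereas Plod3 missed the threshold (-0.068 in log2; edgeR, adjusted p = 0.155) and was higher with library sizes alone (0.20, adjusted p = 0.000779). Pcolce2, a gene for an enhancer of procollagen processing, fell 5.71-fold, from 75.7 ± 7.65 to 13.2 ± 0.807 CPM, whereas Pcolce rose 1.12-fold, from 76.1 ± 4.76 to 85.3 ± 3.13 CPM. Tll2 rose from 5.91 ± 1.62 to 183 ± 7.89 CPM, 30.8-fold; it belongs to the protease family of Bmp1, which releases active lysyl oxidase from its precursor. The remaining lysyl oxidase genes, named to complete the family, were both lower: Loxl4 had 5.15 ± 0.659 and 2.49 ± 0.558 CPM (edgeR, adjusted p = 3.28e-05) and Loxl3 70.1 ± 8.75 and 56.03 ± 2.72 CPM (edgeR, adjusted p = 0.00119, but 0.456 with library sizes alone).

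Of 5 tested elastin-degrading proteases 2 rose and 3 fell, and of 10 receptor genes 2 rose and 8 fell. With library sizes alone Neu1 (adjusted p = 0.866 in edgeR), Ctsa (0.929) and Itgb1 (0.691) were no longer called lower. Ctsk, a cathepsin gene of osteoclasts, fell 2.09-fold, from 157 ± 19.1 to 74.9 ± 6.17 CPM, and Ctsl 1.83-fold, from 693 ± 22.7 to 379 ± 27.9 CPM, whereas Ctss rose 1.34-fold, from 27.4 ± 2.23 to 36.6 ± 1.85 CPM. The elastases Mmp12, Mmp7 and Elane were too low to be tested, with 7, 1 and 37 summed euthyroid counts and 1, 0 and 6 summed hypothyroid counts. Among receptors, Itga8 fell 2.22-fold, from 166 ± 11.2 to 75.04 ± 6.97 CPM, Itgav 1.87-fold and Glb1, the beta-galactosidase gene that also encodes the elastin-binding protein, 1.82-fold (SD, n = 5 each).

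**Figure D5:**
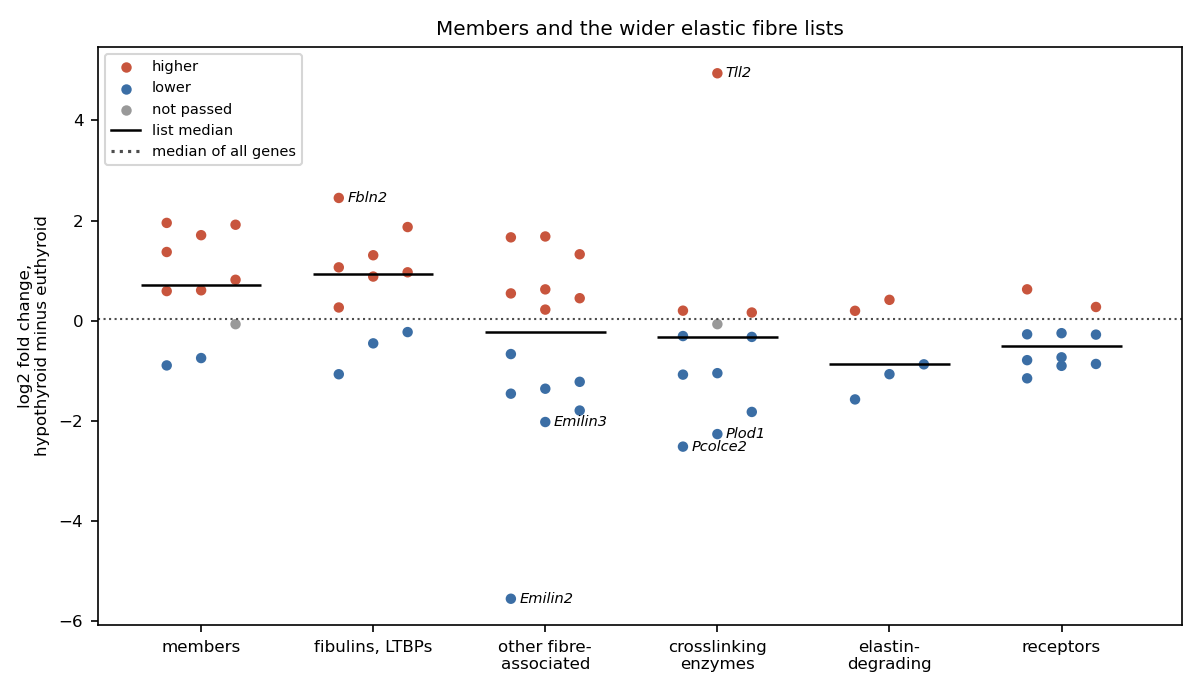
Log2 fold change of the 10 genes and of the 50 tested genes of the 5 wider lists, one point per gene, with list medians as bars and the median of all genes dotted. Fibulins and latent TGF-beta binding proteins lie mostly above 0 and receptors mostly below, with Tll2 at 4.94 and Emilin2 at -5.55 as the extremes.

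Other cells of the dissected tissue make elastic fibre genes too, and many of their markers passed the test as well. Of all genes tested 37.7% were higher and 34.1% lower, so counts of markers are to be read beside these shares. Over all genes the CPM summed to 1068400 to 1118580 in euthyroid and 895801 to 931638 in hypothyroid libraries. Sums of markers are to be read beside that fall. For smooth muscle and pericyte markers, 72.7% of those tested passed, near the 71.8% of all genes. Smooth muscle and pericyte markers, the cells of elastic arteries among them, were lower in 7 of 11 tested genes and higher in 1, and their summed level was 1461 to 1812 CPM in euthyroid and 789 to 872 CPM in hypothyroid libraries. Most of this was the pericyte gene Rgs5, at 1044 and 445 CPM. Among the smooth muscle genes, Myh11 rose from 2.10 to 6.20 CPM and Tagln fell from 3.69 to 1.99 CPM. Smtn fell from 71.01 to 58.6 CPM (-0.28 in log2), with overlapping groups, and was not followed under other scaling. Acta2 (2.79 and 2.47 CPM) and Des (12.6 and 12.9 CPM) did not pass, and Cnn1, with 4 and 3 counts in all, was not tested. Connective tissue fibroblast markers were higher in 4 of 10 and lower in 4, with sums of 10142 to 11132 and 8456 to 9706 CPM, most of it Col1a2, which did not pass (6228 and 5879 CPM). Among the 4 lower ones, Col1a1 fell 14.8-fold, from 361 to 24.4 CPM, Lum from 1792 to 1351 CPM and Col3a1 from 1351 to 851 CPM. Among the 4 higher ones, Dcn rose from 533 to 892 CPM. Macrophage markers were higher in 9 of 9, at 294 to 330.04 against 449 to 581 CPM.

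The remaining marker lists had lower sums in the hypothyroid libraries, as had all genes together on the same scale. Whether the sums stay lower with library sizes alone was not tested. Their counts stand beside 34.1% lower and 37.7% higher among all genes tested. Chondrocyte markers summed to 45439 to 51925 CPM and 18386 to 19964 CPM, with 5 of 9 lower and 3 higher, and most of both sums was Col2a1 (32367 and 12485 CPM). Osteoblast markers summed to 1412 to 2027 and 418 to 962 CPM, with 8 of 10 lower, and most of the hypothyroid sum was Spp1, which did not pass (288 ± 54.9 and 479 ± 231 CPM; SD, n = 5 each). Ibsp fell from 763 to 12.3 CPM and Bglap from 87.8 to 0.394 CPM. Spiral ligament fibrocyte markers (7 of 13 lower, 5 higher) went from 24834 to 30176 CPM to 12380 to 15167 CPM. Root cell markers (7 of 11 lower, 3 higher) went from 8437 to 9082 CPM to 3439 to 4168 CPM. Ligament and root cell markers were thus detected in every library, which does not settle what tissue was taken, and single ones differed widely. The chondrocyte sum was larger than either sum in both groups. Otor, the largest part of the hypothyroid ligament sum, did not pass (5479 and 6060 CPM). Otos fell from 3906 to 56.1 CPM, whereas Aqp1 rose from 133 to 357 CPM. Of the root cell markers, Epyc was the largest part (3978 and 1735 CPM). Kcnj16 fell from 353 to 14.4 CPM and Lgr6 rose from 13.9 to 98.5 CPM. Endothelial markers (7 of 10 lower, 1 higher) summed to 879 to 1122 and 688 to 799.7 CPM, and hair cell markers (6 of 8 lower, 1 higher) to 48.1 to 104 and 35.4 to 45.5 CPM. Most of the hypothyroid hair cell sum was Myo7a, which rose from 12.5 to 30.8 CPM, while Slc26a5 was at 0 counts in the hypothyroid libraries. The part of these shifts in the elastic fibre genes was not tested.

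Library totals were 19781921 to 20063961 estimated counts in the euthyroid and 19298145 to 19407592 in the hypothyroid group, so depth was nearly equal. Between 2188 (Fbln5) and 46606 (Lox) counts per group lay behind each gene except Mfap5. Scaling moved the balance of all called genes from 52.5% higher to 74.7% with library sizes alone and 62.5% with upper quartile factors, and the median of all genes from 0.037 to 0.30 and 0.15. The 9 called genes of the set kept their direction under every alternative in which they were tested.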

How the data were processed

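RNA of 10 libraries was measured as poly(A)-selected, single-end reads of 50 bases, per the labels' protocols. HISAT2 2.0.4, Bowtie2 2.2.5, RSEM 1.2.12 and build GRCm38.p6 are named in the submitters' processing notes, without role or order. The authors deposited expected counts per gene (RSEM estimates, not whole), FPKM and TPM (per length), and a scaled signal, which is the count rounded up times 1 factor per library, per the file headers and values; 100% of its values came out whole (within 0.001) after division, and edgeR called 10675 genes on those reads, an alternative added after seeing the data.

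Expected counts were rounded and tested with edgeR 4.0.16 (R 4.3.3): filterByExpr with minimum count 10, TMM factors (means 0.912 euthyroid, 1.10 hypothyroid), robust quasi-likelihood fit with group as the only term, two-sided, Benjamini-Hochberg over 14862 genes. SE is the log2 fold change divided by the root of F. CPM use TMM-scaled totals. Ratios of 7 pairs of genes were compared by exact permutation. Alternatives used limma 3.58.1 (log2 with pseudocounts 0.1 and 1) and DESeq2 1.42.0, and figures matplotlib 3.10.9 under Python 3.11.15. The edgeR script was run on simulated data in which few genes changed, evenly up and down. Many more genes differed here, so that run does not test the scaling of these data. Over 20 pairs of libraries within groups, the chi-square per gene was 5.39 to 15.7, so none was a duplicate.

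The genes, lists and pairs were chosen with earlier results of these data known. Named are all 10 genes, the 3 genes per wider list with the smallest adjusted p, wider-list genes changed at least 4-fold (log2 2) at 5 CPM or more, the 5 profiles most like Eln, and some of the marker genes the rule takes (the 3 most abundant per list and any at 0). Efemp2, Mfap4, Plod3, Loxl3, Loxl4, Atp7a, Itgb1, Neu1, Ctsa, Mmp7, Mmp12, Elane, Acta2, Cnn1, Myh11, Tagln, Des and Bglap were named after their values were seen. The same holds for Col1a1, Dcn, Otos, Aqp1, Kcnj16, Lgr6, Adamts17, Bmp1, Tll1 and Pcolce. The lists of other cell types are described by counts and sums.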

Additional observations from a re-analysis of the deposited data

Results flagged for a closer look

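A single library stood apart from the other four of its group in 5 of the 34 groups of 5 values looked at (10 genes and 7 ratios in both treatments), by Dixon's gap criterion, which chance meets in about 1 of 20 groups. Lox had 646 CPM in euthyroid replicate 4, against 377 to 454 CPM in the other euthyroid libraries. Fbn1 had 80.2 CPM in euthyroid replicate 2, against 83.04 to 83.9 CPM. The log2 ratio of Fbn2 to Fbn1 was -0.16 in hypothyroid replicate 3, against 0.17 to 0.23 in the others. The log2 ratio of Mfap5 to Mfap2 was -8.9996 in hypothyroid replicate 1, against -7.94 to -7.56. The log2 ratio of Emilin1 to Eln was -1.05 in hypothyroid replicate 2, against -0.77 to -0.70.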

How the results depend on the processing

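Over 21 alternatives 2 of the 10 genes fell in each and 7 rose, except that 6 rose where Mfap5 lost its call (without euthyroid or hypothyroid replicate 3) or was not tested (minimum count 50). With library sizes alone 8650 of all genes were higher and 2928 lower, and limma found 2811 lower on FPKM with either pseudocount and 3243 on TPM. Lox turned to 0.20 with library sizes alone, 0.042 with upper quartile factors, 0.21 on FPKM with both pseudocounts, 0.17 on TPM and 0.075 without euthyroid replicate 4 (range without 1 library -0.15 to 0.075), and its adjusted p was 0.211 or more throughout. With library sizes alone, limma on FPKM + 0.1 and on FPKM + 1, Efemp2 turned to 0.041, 0.044 and 0.043, Itgb1 to 0.018, 0.017 and 0.017, Plod3 to 0.20, 0.20 and 0.19, and Acta2 to 0.088, 0.057 and 0.039. On TPM, Efemp2 turned to 0.0046, Plod3 to 0.16 and Acta2 to 0.023, and with upper quartile factors Plod3 to 0.043. Of the 50 wider genes tested, 43 kept direction and call throughout. Lower calls among them went from 28 to 22 with library sizes alone and on TPM and to 21 on FPKM, where Neu1, Ctsa, Atp7a and Loxl3 lost theirs. Same-numbered libraries were not paired by the labels, and their deviations correlated at -0.08 to 0.11, so the replicate block, under which 5453 genes were higher and 4939 lower, is a description only. For the ratios the block allows no p under 0.0625, so its values say nothing of stability: 0.76 (Fbn2/Fbn1), -1.13 (Mfap5/Mfap2), -0.84 (Loxl1/Lox), -0.69 (Loxl2/Lox), -0.24 (Fbln5/Eln), -1.38 (Emilin1/Eln) and 1.35 (Eln/Fbn1). Without 1 library, Fbln5/Eln ran from -0.29 to -0.17, past the threshold only without euthyroid replicate 3 or hypothyroid replicate 4. The cause of these changes was not tested. Counts were lowest for Mfap5, at 74 and 153 over the libraries of a group.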
